A study of Mus musculus with 30 samples.

Results

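The mouse digit tip was compared between 14 d after amputation and 0 h, the time of surgery. All genes were compared, and the samples were chosen by their labelled time points: 3 mice at 14 d and 3 other mice at 0 h, 6 of the 30 mice in the series. In the study, adult male C57Bl/6 mice aged 9 to 10 weeks lost at most 33% of the third distal phalanx (P3) of a hindlimb, the wound was left to heal without sutures, and the digit was collected once from each mouse. The 9 groups cover 0, 3, 6, 12 and 24 h and 3, 7, 14 and 21 d, with 6 mice at 7 d and 3 at each other time. Both groups compared here had the surgery, so the 0 h mice stand for a digit cut and collected at once and not for an uncut digit. All 6 digits came from right feet, and the polyA RNA of each digit was sequenced as 1 library.

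The terminal bone of the mouse digit grows back after a distal cut that leaves its base and the nail bed. Osteoclasts, cells that dissolve bone, first wear back the stump, epidermis closes over it, and a mound of proliferating cells called the blastema forms beneath. Cells of the blastema then become osteoblasts, which lay down new bone directly rather than on a cartilage template. Osteoblasts secrete type I collagen and a set of mineral-binding proteins, and cells that are buried in the new matrix become osteocytes.

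Read totals ran from 5698534 to 12773273 expected counts a library. The sample names carry a code and a date that the labels do not explain, and the dates fall into an earlier set (July and August) and a later set (November to January). In both groups 1 mouse had an earlier date (0 h mouse 3 and 14 d mouse 1) and 2 mice had later dates. The name of 0 h mouse 3 shares its code and date with a 12 h sample. The counts of these libraries differed by a chi-square of 23.96 per degree of freedom over genes, so they were not 1 library deposited a second time. The labels do not say whether both came from 1 mouse, and the fit counted them as separate mice. The distance of 0 h mouse 3 from the 3 libraries of 12 h, 15 to 24.37, was below its distance from the other 0 h mice, 24.71 and 35.6. Where mice differ, this measure grows with read depth. The 12 h libraries held 4916791 to 6776238 counts, against 12773273 and 9955035 in 0 h mice 1 and 2. All 12 h samples also had earlier dates, like 0 h mouse 3, so these distances do not show a likeness to 12 h. In S100a9 and Fos, which rise or fall early after injury here, it stood with the other 0 h mice. S100a9 was at 0.80 CPM there against 3.81 to 12.7 CPM in the 12 h mice and Fos was at 779.9 against 23.2 to 87.7 CPM. Il1b and Mmp13, which also rise early, were higher in 0 h mouse 3 than in the other 0 h mice. Il1b was at 1.28 CPM against 0.24 and 0.11 CPM, with 6.20 to 19.4 CPM at 12 h. Mmp13 was at 9.28 CPM against 3.04 and 1.60 CPM, with 44.5 to 78.1 CPM at 12 h. The sample kept its labelled group, and counts without it are given below. The 14 d mice 2 and 3 share a code number and a date and were closer to each other (13.5) than other pairs of the 6 mice, although far from equal in counts.

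Of 13793 genes tested with edgeR's quasi-likelihood test, 222 were called different at an adjusted p under 0.05, which is 1.61% of the genes. At 14 d 204 genes were higher (1.48%) and 18 were lower (0.131%), and 1229 genes had an unadjusted p under 0.05. The higher genes had a median log2 fold change of 1.82, with values from 0.61 to 8.04. The lower genes had a median of -1.40. Every 14 d mouse lay above every 0 h mouse in 201 of the 204 and below in all 18 of the lower genes. Among all genes tested, the same complete separation held for 13.6% upwards and for 11.8% downwards. These shares, and the 1229 of 13793 genes at an unadjusted p under 0.05, are the background for every count of list members below. The lists were chosen with earlier results of these data known, so their counts and medians describe the members and test no list. The calls were sensitive to single mice. With 1 of the 6 mice left out at a time, 94 to 181 genes were called, 94 without 0 h mouse 1 and 112 without 0 h mouse 3. Of the 204 higher genes 72 were called in each of these 6 fits, as were 5 of the 18 lower genes.

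**Figure D1:**
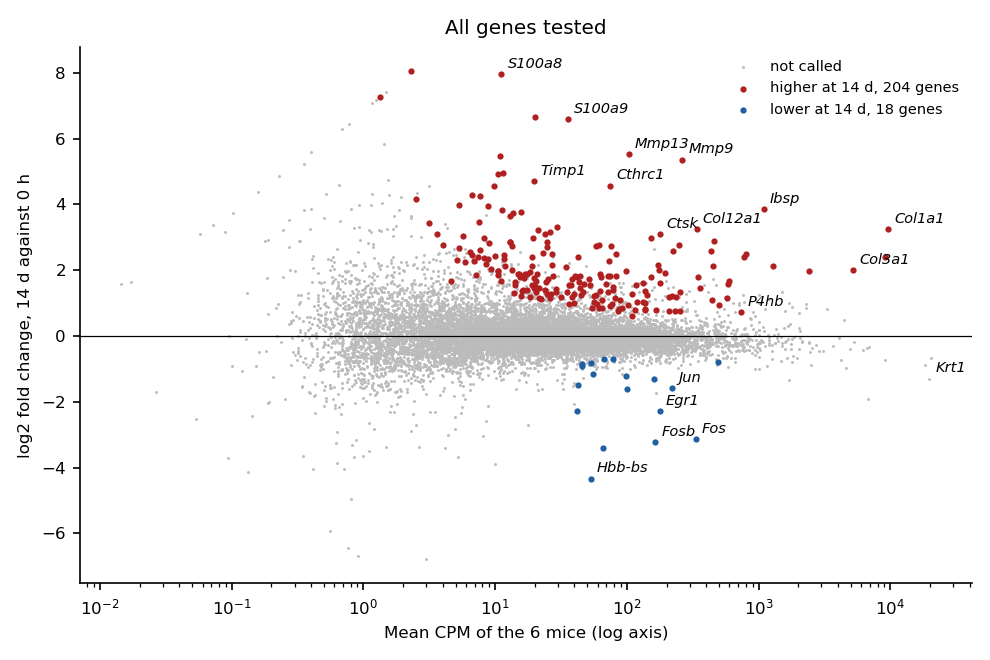
Each point is 1 of the 13793 genes tested, with its mean CPM over the 6 mice on the x axis (log axis) and its fitted log2 fold change of 14 d over 0 h on the y axis. The 204 genes called higher are red and the 18 called lower are blue, so the called genes lie mostly above the zero line, and genes with no counts in a group have fold changes that depend on the prior count.

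The genes that rose include the main products of osteoblasts and the enzymes that build collagen. The list of bone matrix and osteoblast product genes had 19 members, of which 8 rose, none fell and 11 did not pass the test. Its median log2 fold change was 1.82 against -0.0039 over all genes tested, all 19 fitted changes were above 0, and in 16 of the 19 the 14 d mice lay wholly above the 0 h mice. The 8 were Cthrc1, Col1a1, Ibsp, Sparc, Col1a2, Alpl, Pth1r and Phospho1, and all of them but Phospho1 were called with any 1 mouse left out. In bulk tissue, more cells of a type and more RNA per cell cannot be told apart.

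Levels in each mouse are given as CPM, counts per 1000000 counted reads after scaling for library composition, in the order of mice 1, 2 and 3. Col1a1 encodes the main chain of type I collagen and lies on chromosome 11 at 94936224 to 94953042 on the plus strand (GRCm38). It stood at 1544, 2865 and 1111 CPM at 0 h and at 18885, 15791 and 17832 CPM at 14 d. The 14 d mice were close together and all were above the highest 0 h mouse. The log2 fold change was 3.25 ± 0.40 (SE), with an adjusted p of 1.23e-05. Col1a2, the second chain of the same collagen, rose from 2360.0, 4402 and 1879 CPM to 15423, 14046 and 16233 CPM, a log2 change of 2.40 ± 0.41 (adjusted p = 0.00083). Per length, as TPM (transcripts per 1000000 transcripts), these were the most abundant of the genes called at 14 d, at 6458 ± 357 TPM for Col1a1 and 6241 ± 296 TPM for Col1a2 (SD, n = 3).

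Ibsp encodes bone sialoprotein, a mineral-binding protein of young bone, and lies on chromosome 5 at 104299171 to 104311469 on the plus strand. Its levels were 128, 237 and 56.0 CPM at 0 h and 1762.9, 1435 and 2925 CPM at 14 d. The groups did not overlap, and the mice within each group spread more than for Col1a1. The log2 change was 3.86 ± 0.53 (adjusted p = 6.51e-05). Cthrc1, a secreted protein of repairing tissue and bone-forming cells, lies on chromosome 15 at 39076932 to 39087121 on the plus strand. It went from 7.12, 7.78 and 2.56 CPM to 156, 116 and 156 CPM, a log2 change of 4.57 ± 0.37. At 8.18e-09 it had the smallest adjusted p of the list. Alpl, the phosphatase that frees phosphate for mineral, rose from 25.3, 25.9 and 23.0 CPM to 159, 112 and 148 CPM (log2 change 2.50 ± 0.43, adjusted p = 0.000989).

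Other mineral genes did not pass the test. Bglap encodes osteocalcin, a late product of mature osteoblasts, and stood at 5.44, 6.82 and 10.1 CPM at 0 h and at 24.5, 17.0 and 6.41 CPM at 14 d, so the groups overlapped (log2 change 1.10 ± 0.89, adjusted p = 0.884). Of the 31-base words in its transcripts 62.9% also occur in other genes, with Bglap3 sharing the most, so the authors' counting could split reads between these copies. Spp1, osteopontin, had a log2 difference of 1.40 ± 0.38 with groups that did not overlap, but an adjusted p of 0.0535. Phospho1, an enzyme of mineralization, was called (log2 change 1.56 ± 0.33, adjusted p = 0.00751). However, 89.6% of its exonic bases overlap Zfp652 or Abi3, and its adjusted p was 0.0552 without 0 h mouse 3.

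The promoters of 3 of these genes are shown, a mineral-binding protein and a collagen chain that rose beside osteocalcin, which did not pass. Col1a1 and Cthrc1, with larger changes, had no match in the promoter table. Each is the 250 bases before the RefSeq start site (GRCm38.p6), 5′ to 3′ on the gene's strand. Capitals mark the RUNX core TGTGGT, the core of the site bound by the Runt family that includes Runx2, which was searched on both strands and stands in the Bglap promoter as its reverse complement. Ibsp is chr5:104299037-104299286 on the plus strand, Col1a2 is chr6:4505368-4505617 on the plus strand and Bglap is chr3:88384467-88384716 on the minus strand.
Ibsp: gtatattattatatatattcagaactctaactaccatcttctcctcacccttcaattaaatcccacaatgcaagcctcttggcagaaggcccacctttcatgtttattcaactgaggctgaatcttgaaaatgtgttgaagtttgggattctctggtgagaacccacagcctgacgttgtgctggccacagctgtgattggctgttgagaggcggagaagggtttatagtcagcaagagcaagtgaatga
Col1a2: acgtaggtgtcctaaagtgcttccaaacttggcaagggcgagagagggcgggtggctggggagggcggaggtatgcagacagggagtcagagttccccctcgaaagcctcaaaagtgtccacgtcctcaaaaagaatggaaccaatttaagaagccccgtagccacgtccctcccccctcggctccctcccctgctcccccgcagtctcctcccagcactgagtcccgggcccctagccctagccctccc
Bglap: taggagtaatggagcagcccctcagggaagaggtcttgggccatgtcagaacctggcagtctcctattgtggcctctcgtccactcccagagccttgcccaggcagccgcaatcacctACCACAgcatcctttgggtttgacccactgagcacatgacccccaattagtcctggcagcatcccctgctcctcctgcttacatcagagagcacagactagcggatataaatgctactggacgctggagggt

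The core begins at position -132 from the Bglap start, and the Ibsp and Col1a2 windows do not hold these letters. Promoters were matched for 14 of the 19 genes of the list, 20 promoters in all. The core lay in 4 of these promoters (20.0%), those of Bglap, Serpinf1, Sparc and Spp1, against 16.8% of all 32851 promoters in the table. The search also covered the table's bases after each start, which are not printed, and the Sparc match lies there, at position 35. A match is a string of letters and not a measured site.

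Factors that direct the osteoblast fate moved in part. Of 12 genes of osteoblast transcription factors tested, 3 rose, none fell and 9 did not pass, and the median log2 fold change was 0.60. Sp7 (osterix), which commits cells to the osteoblast fate, lies on chromosome 15 at 102356606 to 102367182 on the minus strand. It was at 7.04, 9.70 and 2.56 CPM at 0 h and at 32.3, 52.8 and 43.4 CPM at 14 d, with no overlap. Its log2 change was 2.71 ± 0.43 (adjusted p = 0.000414). Creb3l1, a factor that raises collagen synthesis in osteoblasts, rose by a log2 change of 2.49 ± 0.39 (adjusted p = 0.000387). Runx2, which acts before Sp7, was at 11.0, 12.9 and 11.5 CPM and then at 54.9, 26.6 and 28.3 CPM. It was called at an adjusted p of 0.0356, but 14 d mouse 1 carried much of this, and without that mouse the adjusted p was 0.302. Dlx5 was at 51.4, 58.7 and 55.8 CPM and then at 56.7, 57.0 and 43.8 CPM, groups that overlapped (adjusted p = 0.989).

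Of 8 osteocyte genes tested, 1 rose, none fell, 7 did not pass and the median log2 fold change was 0.07. The gene that rose was Pdpn, a membrane protein of young osteocytes that other cell types also make, with a log2 change of 1.85 ± 0.35 (adjusted p = 0.00245). Mepe, a matrix protein of osteocytes, was at 6.80, 3.52 and 8.48 CPM at 0 h and at 0, 2.98 and 2.95 CPM at 14 d (adjusted p = 0.612). Sost, the Wnt inhibitor that mature osteocytes secrete, was at 5.76, 2.66 and 3.36 CPM and then at 0, 1.44 and 1.39 CPM (adjusted p = 0.815). Both genes lay lower in every 14 d mouse, at levels where few reads were counted. The summed TPM of the 3 osteocyte markers Dmp1, Mepe and Sost ran from 32.9 to 56.7 at 0 h and from 37.0 to 66.0 at 14 d, whereas the sum of the osteoblast markers Ibsp, Bglap, Sp7 and Alpl ran from 138 to 301 and from 1833 to 3276. With Mepe and Sost lower in every 14 d mouse, the osteocyte sum does not describe each of its markers.

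**Figure D2:**
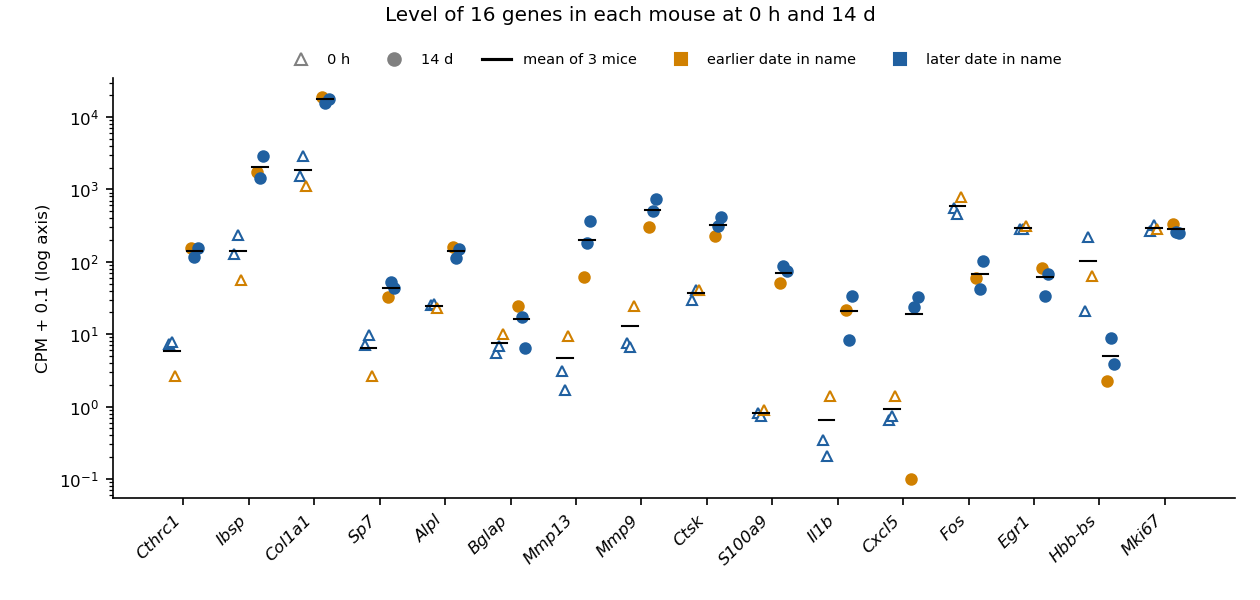
Levels of 16 genes in CPM (plus 0.1, log axis) in each of the 3 mice at 0 h (triangles) and the 3 mice at 14 d (circles), with the mean of each group as a bar and colour for the earlier or later date in the sample name. Col1a1 and Ibsp stand higher in all 3 mice at 14 d, Fos stands lower in all 3, and the Bglap groups overlap.

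Collagens of several types rose. Of 32 collagen genes tested 13 rose, none fell and 19 did not pass, with a median log2 fold change of 1.16. In 21 genes the 14 d mice lay wholly above and in 2 wholly below. Of the 13 that rose, 11 were called whichever mouse was left out. Besides type I, the called chains were of the fibrillar types III, V and XI (Col3a1, Col5a1, Col5a2, Col11a1, Col11a2), the basement membrane type IV (Col4a1, Col4a2), the beaded type VI (Col6a1, Col6a2, Col6a3) and Col12a1, which coats fibrils. Col12a1 went from 68.4, 59.9 and 65.6 CPM to 775, 416 and 645 CPM, a log2 change of 3.24 ± 0.38 (adjusted p = 6.18e-06). Col11a1 went from 45.6, 104 and 42.4 CPM to 479.6, 343 and 488 CPM, a log2 change of 2.77 ± 0.36. Col11a2 was called at 0.0267, but its adjusted p was 0.236 without 0 h mouse 1, and that of Col4a2 was 0.0887 without 0 h mouse 3. The summed TPM of the 32 collagens was 3604, 5797 and 3414 at 0 h and 20215, 18430 and 21037 at 14 d, or 0.341 to 0.58% and 1.84 to 2.1% of all TPM.

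The machinery that modifies and links collagen moved with it. Of 26 genes of collagen synthesis tested 14 rose, none fell and 12 did not pass, with a median log2 fold change of 1.2. In 23 the 14 d mice lay wholly above and in 1 wholly below, and 2 fitted changes were below 0. Fkbp10, a chaperone of procollagen in the endoplasmic reticulum, went from 24.0, 18.1 and 16.5 CPM to 117, 130.0 and 147 CPM. Its log2 change of 2.74 ± 0.28 had an adjusted p of 9.05e-07. Lepre1, which hydroxylates proline, and Plod2, which hydroxylates lysine, rose by log2 changes of 2.40 ± 0.35 and 2.28 ± 0.34. Lox, which cross-links finished fibrils outside the cell, went from 30.1, 35.6 and 38.2 CPM to 271, 239 and 307 CPM (log2 change 2.98 ± 0.45, adjusted p = 0.000241). Of the 14, 8 were called with any 1 mouse left out, these 4 among them. The related Loxl2 was called too, but its adjusted p was 0.289 without 0 h mouse 1. Of its 31-base words 46.2% also occur in other genes, with Gm21451 sharing the most.

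Matrix glycoproteins also rose. Of 30 tested 11 rose, none fell and 19 did not pass, and the median log2 fold change was 1.18. Tnc, tenascin C, a matrix protein of healing and growing tissue, went from 62.2, 57.9 and 73.3 CPM to 352, 332 and 476 CPM (log2 change 2.59 ± 0.35, adjusted p = 5.91e-05). Postn, periostin, which is made by the cells that line bone, rose by a log2 change of 2.40 ± 0.45, and Thbs2, a thrombospondin, by 1.91 ± 0.34. Fn1, fibronectin, was at 284, 457 and 292 CPM and then at 678, 691 and 947 CPM, groups that did not overlap, but with an adjusted p of 0.194. Of the 11, 6 were called with any 1 mouse left out.

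Some genes of cartilage rose. Of 15 tested 4 rose, none fell and 11 did not pass, and the median log2 fold change was 0.02. A pair of them were the type XI collagen chains, which bone-forming cells also make, and the others were Acan and Matn3. Acan, the large proteoglycan of cartilage, was called at 0.0145 and had an adjusted p of 0.13 without 14 d mouse 3. Matn3, a matrix protein of cartilage, had no count in any 0 h mouse and was at 3.00, 1.34 and 3.73 CPM at 14 d, at least 25.4-fold higher against a floor of 3 counts over the group. Its adjusted p of 0.0279 became 0.178 without 0 h mouse 1. Col2a1, the collagen of cartilage, was at 3.52, 10.6 and 5.44 CPM and then at 12.7, 5.66 and 6.93 CPM, and Col10a1, the collagen of hypertrophic cartilage, was at 14.8, 15.3 and 14.9 CPM and then at 0.53, 14.0 and 7.45 CPM. Neither was called (adjusted p = 0.983 and 0.921). In a list of 6 tendon genes tested none was called, with 1 at an unadjusted p under 0.05 and 1 called by DESeq2.

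Enzymes that cut matrix rose too. Of 18 matrix proteases and their inhibitors tested 10 rose, none fell and 8 did not pass. The median log2 fold change was 2.05, with 15 genes at which the 14 d mice lay wholly above. Mmp13 (collagenase 3), made by osteoblasts and other cells of bone, was at 3.04, 1.60 and 9.28 CPM at 0 h and at 60.9, 182 and 364 CPM at 14 d. All 14 d mice were far above the 0 h mice but differed several-fold among themselves, with mouse 1 the lowest. The log2 change was 5.53 ± 0.80 (adjusted p = 0.000121). Mmp9, a gelatinase of osteoclasts and neutrophils that lies on chromosome 2 at 164940780 to 164955850 on the plus strand, went from 7.52, 6.61 and 24.2 CPM to 305, 503 and 735 CPM (log2 change 5.36 ± 0.60, adjusted p = 3e-06). Timp1, which inhibits these enzymes, went from 1.04, 2.03 and 1.28 CPM to 32.5, 35.8 and 45.9 CPM (log2 change 4.71 ± 0.55, adjusted p = 6.08e-06). Mmp14, a collagenase on the cell surface, rose by 1.62 ± 0.22. These 4 of the 10 were called with any 1 mouse left out.

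Osteoclast genes were also higher. Of 16 tested 5 rose (Mmp9, Ctsk, Atp6v0d2, Acp5 and Dcstamp) and none fell, the median log2 fold change was 0.77 and all 16 fitted changes were above 0. Ctsk, cathepsin K, the protease by which osteoclasts dissolve bone collagen, lies on chromosome 3 at 95499256 to 95509362 on the plus strand. Its levels were 29.8, 41.1 and 40.8 CPM at 0 h and 224, 315 and 418 CPM at 14 d, a log2 change of 3.10 ± 0.36 (adjusted p = 6.08e-06). Atp6v0d2, a proton pump subunit of osteoclasts, went from 1.44, 0.64 and 4.00 CPM to 15.9, 23.1 and 36.8 CPM (log2 change 3.74 ± 0.72, adjusted p = 0.00307). Acp5, the tartrate-resistant acid phosphatase, was called at 0.0074, but at 0.0764 without 0 h mouse 2. Dcstamp, which osteoclast precursors need to fuse, was called at 0.0469 and had an adjusted p of 0.282 without 0 h mouse 1. Ocstamp, a related fusion protein, was at 12.0, 11.2 and 8.80 CPM and then at 14.1, 17.3 and 17.0 CPM (adjusted p = 0.916).

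Of the 4 signals to osteoclasts tested, 1 rose. Tnfsf11 encodes RANKL, the ligand that drives osteoclast formation. It was at 0.24, 0.96 and 0.80 CPM at 0 h and at 6.00, 10.7 and 21.1 CPM at 14 d, with no overlap and with a spread of several-fold at 14 d. The log2 change was 4.29 ± 0.72 (adjusted p = 0.000734). Its decoy receptor Tnfrsf11b (osteoprotegerin) was at 7.12, 7.14 and 5.28 CPM and then at 4.06, 10.2 and 16.1 CPM, groups that overlapped (adjusted p = 0.927). Csf1, the growth factor of the macrophage and osteoclast lineage, had a log2 difference of 0.39 ± 0.30 (adjusted p = 0.862).

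Genes of inflammation and neutrophils held some of the steepest changes. Of 23 tested 6 rose and none fell, at a median log2 fold change of 3.52, and 22 fitted changes were above 0. At 0 h most were at or near no counts, so the folds are large and their errors wide. S100a9, a calcium-binding protein that neutrophils carry in bulk, was at 0.72, 0.64 and 0.80 CPM and then at 50.3, 87.2 and 73.8 CPM. The log2 change was 6.59 ± 1.0 (adjusted p = 0.00028). Its partner S100a8, on chromosome 3 at 90668978 to 90670035 on the plus strand, had 2 counts in all 0 h mice together against 601 at 14 d. The ratio of levels was 314, with an exact 95% interval of 86.5 to 2600.0 that covers counting error only. In each 14 d mouse S100a8 was at 21.4, 23.7 and 21.7 CPM (adjusted p = 0.000534).

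The cytokine genes of this list were more variable between mice. Il1b, interleukin 1 beta, was at 0.24, 0.11 and 1.28 CPM and then at 21.7, 8.13 and 33.3 CPM (log2 change 5.47 ± 1.0, adjusted p = 0.00295). Cxcl2, a chemokine that draws neutrophils, was at 0, 0.43 and 0.96 CPM and then at 32.8, 14.0 and 73.1 CPM (log2 change 6.66 ± 1.3, adjusted p = 0.00298). Cxcl5, a related chemokine, had no count in 14 d mouse 1 and 24.0 and 32.7 CPM in the others, against 0.56 to 1.28 CPM at 0 h. It was called at 0.0177 though the groups overlapped, and its adjusted p was 0.146 without 0 h mouse 1. Ccl7 was called at 0.0435 and had an adjusted p of 0.235 without 0 h mouse 3. The neutrophil markers S100a8 and S100a9 summed to between 3.04 and 3.91 TPM at 0 h and to between 341 and 551 TPM at 14 d, beside Mmp9, which neutrophils also carry, and their part in the Mmp9 result was not tested.

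Few macrophage genes passed the test, where 1.48% of all genes tested were called higher. Of 20 tested 1 rose (Cd14, adjusted p = 0.0378, which was 0.474 without 14 d mouse 3), none fell, 16 fitted changes were above 0 and the median log2 fold change was 0.47. Csf1r, the receptor of Csf1, was at 21.6, 21.5 and 27.0 CPM and then at 40.3, 41.8 and 49.0 CPM (adjusted p = 0.687). The macrophage markers Csf1r and C1qa summed to 36.2 to 46.9 TPM at 0 h and to 39.9 to 61.1 TPM at 14 d, ranges that overlapped. Of 11 antigen presentation genes 1 rose, H2-Aa, and its adjusted p of 0.0286 was 0.15 without 0 h mouse 1. None of 7 lymphoid and mast cell genes and none of 14 interferon response genes was called by edgeR or by DESeq2, and none had an unadjusted p under 0.05. The T cell marker Cd3e was at 0 in every 0 h mouse and the B cell marker Cd79a in every 14 d mouse.

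**Figure D3:**
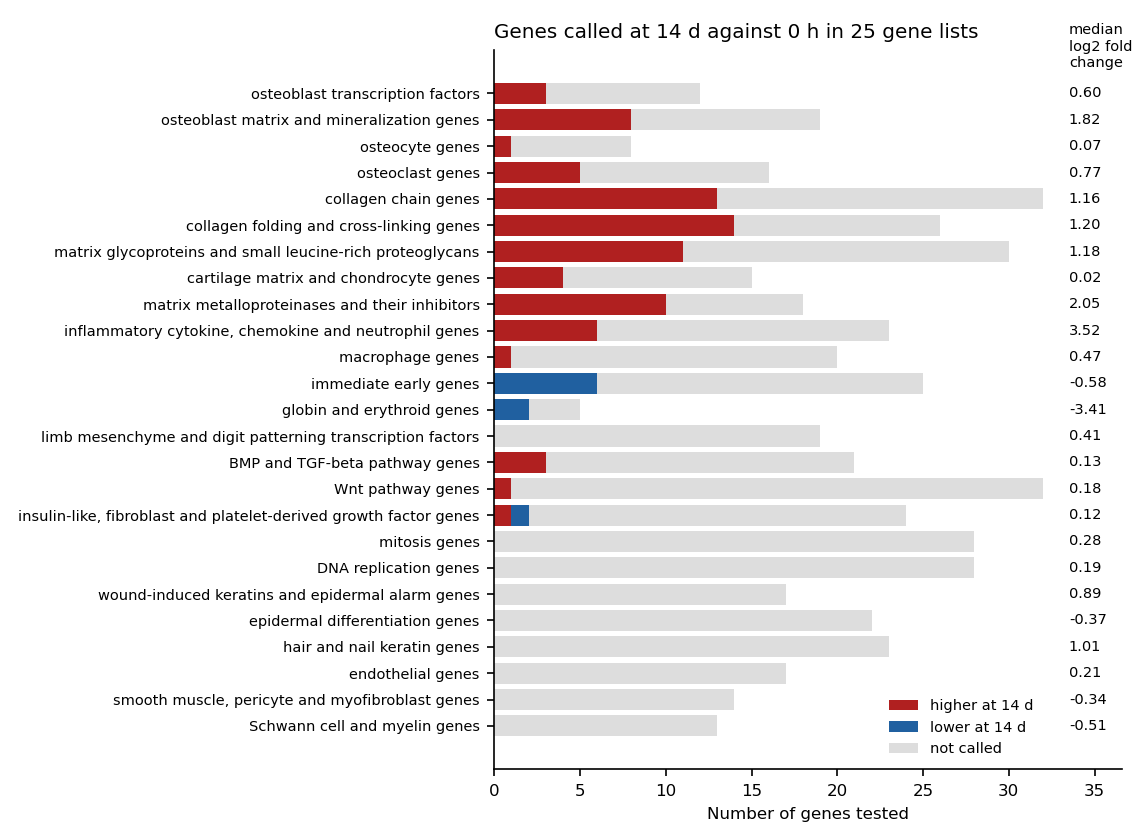
Counts of tested genes in 25 gene lists that were called higher, called lower or not called at 14 d against 0 h by edgeR (bars), with the median log2 fold change of each list printed at the right. The collagen synthesis list has 14 of 26 genes higher and the immediate early list has 6 of 25 lower.

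Of the 18 genes that fell, 6 are immediate early genes, which cells switch on within minutes of a stimulus. Of 25 genes of this list tested none rose and 6 fell (Fos, Fosb, Jun, Egr1, Dusp1 and Btg2), the median log2 fold change was -0.58 and in 13 the 14 d mice lay wholly below. Fos, a subunit of the AP-1 factor, lies on chromosome 12 at 85473890 to 85477273 on the plus strand. It was at 556, 455 and 779.9 CPM at 0 h and at 59.2, 41.8 and 101 CPM at 14 d. The log2 change was -3.14 ± 0.49 (adjusted p = 0.00038). At 21 d Fos was at 521, 185 and 144 CPM, above every 14 d mouse, and was not called against 14 d by edgeR. Fosb changed by -3.22 ± 0.53, Egr1 by -2.28 ± 0.43 and Jun by -1.58 ± 0.29, and with Fos these were called with any 1 mouse left out. Dusp1 was called at 0.00751 but at 0.0748 without 14 d mouse 2, and Btg2 at 0.0469 but in none of the fits with a mouse left out. The 0 h digits are those cut at the time of collection. Whether the level at 0 h or that at 14 d is nearer to an uncut digit was not tested.

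Globin genes were the other group among those that fell. Of 5 erythroid genes tested 2 fell, with a median log2 fold change of -3.41. Hbb-bs, a beta globin of red blood cells, was at 21.0, 220.2 and 62.7 CPM at 0 h and at 2.119, 8.64 and 3.81 CPM at 14 d (log2 change -4.34 ± 0.78, adjusted p = 0.00147). The 0 h mice differed widely among themselves, with mouse 2 the highest, and the adjusted p without that mouse was 0.027. Hba-a2 was called at 0.0462 and had an adjusted p of 0.281 without 14 d mouse 3. Of its 31-base words 92.6% also occur in other genes, with Hba-a1 sharing the most. For Hbb-bs the share was 54.4%, with Hbb-bt sharing the most. The same 0 h mouse 2 held most of the reads of skeletal muscle, with Acta1 at 26.0 CPM against 0.16 and 0 CPM in the other 0 h mice. Of 6 skeletal muscle genes tested none was called by edgeR or DESeq2, 2 had an unadjusted p under 0.05, and the median log2 difference was -2.34. Among the other genes that fell were a pair of secreted growth regulators. Igf2, insulin-like growth factor 2, went from 65.6, 75.4 and 47.7 CPM to 21.2, 26.4 and 19.1 CPM (log2 change -1.50 ± 0.30, adjusted p = 0.00529), with 64.5% of its exonic bases shared with Gm49394 and Igf2os and an adjusted p of 0.0543 without 14 d mouse 3. Nov, a matricellular protein, changed by -2.29 ± 0.57 (adjusted p = 0.0315, or 0.207 without 14 d mouse 1).

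Signalling genes were called singly, where 1.48% of all genes tested were called higher and 0.131% lower. No change of a list is read from them. Of 32 Wnt pathway genes tested 1 rose, with a median log2 fold change of 0.18. It was Wisp1, a matrix protein induced by Wnt signalling, at 3.60, 5.12 and 3.52 CPM and then at 38.5, 30.8 and 44.3 CPM (log2 change 3.21 ± 0.50, adjusted p = 0.00038). Of 21 genes of BMP and TGF-beta signalling 3 rose, with a median of 0.13. They were the ligands Tgfb1 (1.39 ± 0.32) and Inhba (1.46 ± 0.39) and the activin inhibitor Fst (1.03 ± 0.27), and none of the 3 was called in every fit with a mouse left out, with adjusted p up to 0.153, 0.599 and 0.222. Bmp4, a ligand that induces bone, was at 20.0, 20.0 and 19.4 CPM and then at 16.4, 16.2 and 17.8 CPM (adjusted p = 0.974). Of 24 growth factor genes 1 rose and 1 fell, Pdgfc at 1.41 ± 0.37 and Igf2 as above, and the adjusted p of Pdgfc reached 0.264 without 0 h mouse 3.

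Genes of limb patterning and of proliferation did not pass the test. Of 19 patterning genes tested none was called by edgeR or DESeq2, 4 had an unadjusted p under 0.05, and the median log2 difference was 0.41. Hoxd13, which patterns the distal limb, was at 11.9, 16.7 and 13.6 CPM at 0 h and at 25.3, 26.1 and 29.0 CPM at 14 d, without overlap (log2 difference 0.93 ± 0.29, adjusted p = 0.121). Msx1, which marks the digit tip and its blastema, had a difference of 0.95 ± 0.49 (adjusted p = 0.61). Of 28 mitosis genes none was called by edgeR or DESeq2, 1 had an unadjusted p under 0.05 and the median was 0.28. Mki67, a marker of dividing cells, was at 267, 321 and 286 CPM and then at 334, 254 and 252 CPM (log2 difference -0.06 ± 0.27). Of 28 replication genes none was called by edgeR or DESeq2 and none had an unadjusted p under 0.05, with a median of 0.19. That no gene of these lists was called with 3 mice a group does not show that their levels were equal.

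Epidermal genes did not pass the test, although most were lower at 14 d. Of 22 genes of the differentiated epidermis none was called by edgeR and 1 by DESeq2, 6 had an unadjusted p under 0.05, 20 fitted values were below 0 and the median log2 difference was -0.37. Krt1, a keratin of the upper epidermis, was at 28676, 27326 and 28245 CPM and then at 7618, 14359 and 12152 CPM, without overlap (log2 difference -1.30 ± 0.42, adjusted p = 0.158). Krt10, its partner, had a difference of -0.87 ± 0.31 (adjusted p = 0.25). The 3 differentiated keratinocyte markers Krt1, Krt10 and Lor summed to 48034 to 50686 TPM at 0 h and to 20514 to 27874 TPM at 14 d, and the basal markers Krt5 and Krt14 to 9639 to 11827 and to 8290.1 to 9541 TPM. These sums exceed those of the osteoblast markers in every mouse, so the tissue labelled as phalanx held the RNA of its skin. The smaller sum of the differentiated markers at 14 d moved with the higher share of bone and collagen RNA, and its part in those results was not tested. Other keratinocyte lists had higher or overlapping sums. The summed TPM of the wound epidermis list was 4820.4, 3985 and 7512 at 0 h and 12979, 7747 and 7949.5 at 14 d, and that of the nail and hair list was 19539.5, 12916 and 11449 at 0 h and 50300.4, 12262 and 28106 at 14 d, where the groups overlapped. Between any mouse of 14 d and any of 0 h, the sum of the 3 keratinocyte markers was 1.72- to 2.47-fold lower. The sum of the osteoblast markers was 6.08- to 23.8-fold higher. Ibsp, at 1831, 1597 and 3083 TPM at 14 d, made up most of that sum, and the Bglap groups overlapped. Whether these differences are linked was not tested.

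Of 17 keratins and other genes of the wound epidermis none was called by edgeR and 2 by DESeq2, 8 had an unadjusted p under 0.05 and the median log2 difference was 0.89. Krt6b, a keratin of activated epidermis, was at 821, 712 and 1023 CPM and then at 3257, 1496 and 1672 CPM (adjusted p = 0.264). Other genes share 57.0% of its 31-base words, Krt6a the most. Of 23 nail and hair genes none was called by either tool, 5 had an unadjusted p under 0.05, 22 fitted values were above 0 and the median log2 difference was 1.0. Of the remaining tissue lists, none was called by edgeR among 9 sweat gland, 3 melanocyte, 17 endothelial, 14 smooth muscle, 13 Schwann cell and 11 adipocyte genes, nor by DESeq2, and the unadjusted counts were 1, 0, 4, 4, 3 and 0. The fibroblast markers Dcn, Lum and Pdgfra summed to 792 to 1051 TPM at 0 h and to 1125 to 1291 TPM at 14 d. Lum, a collagen-binding proteoglycan, had a log2 difference of 1.56 ± 0.43 (adjusted p = 0.0603). Of 17 circadian clock genes none was called by either tool, and 1 had an unadjusted p under 0.05. Of 17 stress and chaperone genes none was called by edgeR and 1 by DESeq2, and of 20 hypoxia and glycolysis genes 1 rose, P4ha1, which also hydroxylates collagen (adjusted p = 0.0104, or 0.0777 without 0 h mouse 3).

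The groups were then compared within each set of dates, since each group mixed them. Over all genes, the later dates, 2 mice against 2, gave 186 genes higher and 38 lower. The earlier dates, 1 mouse against 1 with the spread taken from the other times, gave 60 higher and 21 lower. The direction of a called gene within the dates is fixed where its groups do not overlap, as in 201 of the 204 higher and all 18 lower genes, and was not counted. The median log2 fold change of the higher genes was 1.74 in the later dates and 1.88 in the earlier. These genes were called from the same mice, so a high median in both sets follows from their choice. A test of the difference between the sets called none of 13587 genes with edgeR, 437 had an unadjusted p under 0.05, the smallest adjusted p was 0.1, and DESeq2 called 11. The 3 higher genes whose groups overlapped, Cxcl5, Angptl4 and Il1rl1, went the other way in the earlier dates. Without 1 mouse the adjusted p of Angptl4 reached 0.212 and that of Il1rl1 0.214.

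**Figure D4:**
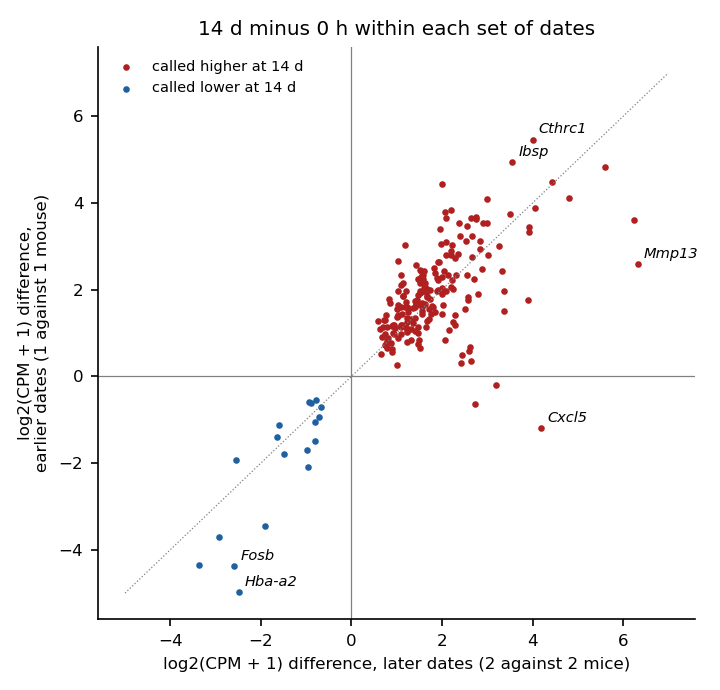
Each point is 1 of the 222 called genes, with the difference of 14 d minus 0 h in mean log2(CPM + 1) among the 2 and 2 mice of later dates on the x axis and the difference between the 1 and 1 mouse of earlier dates on the y axis. Both axes use the mice from which the genes were called, and 3 of the 204 higher genes fall below 0 on the y axis.

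Within 14 d, the mice were not equally far from 0 h. Of the 204 higher genes, 14 d mouse 3 held the highest of the 3 values in 118, mouse 1 in 76 and mouse 2 in 10. Mouse 2 held the lowest value in 126. The ratio of the highest to the lowest 14 d mouse had a median of 1.43 and was above 3 in 22 genes, among them Mmp13 and Cxcl2, whereas Col1a1 ranged from 15791 to 18885 CPM.

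To place 14 d in the time course, it was set beside 7 d (6 mice, 3 of them with the left foot and 2 with earlier dates) and beside 21 d (3 mice, all with later dates). These comparisons share the 14 d mice with the one above. Against 7 d, 49 genes were higher at 14 d (0.355% of those tested) and 11 lower (0.0798%), with 1726 at an unadjusted p under 0.05. With 1 of these 9 mice left out at a time, 21 to 160 genes were called, 21 without 14 d mouse 1 or 3 and 160 without 7 d mouse 2. Of the genes named below, Col1a1, Col11a1, Col11a2, Cthrc1, Sp7, Bglap2, Itgb3, Snx10 and Lif were called against 7 d in each of these fits. Without the left feet 35 genes were called. Against 21 d none was called (0.0%) by edgeR, 270 had an unadjusted p under 0.05 and DESeq2 called 5.

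Bone matrix genes were higher than at 7 d. Of the 19 bone matrix genes 7 were higher at 14 d than at 7 d (Cthrc1, Bglap2, Col1a1, Col1a2, Bglap, Sparc and Serpinf1), and Spp1 was lower. At 7 d Col1a1 ran from 3567 to 6327 CPM with a median of 5368, between the 0 h and the 14 d mice (log2 change 1.75 from 7 d to 14 d, adjusted p = 0.0038, or 0.0658 without the left feet). Sp7 ran from 8.73 to 11.6 CPM at 7 d, near its 0 h levels, and rose by 2.08 to 14 d (adjusted p = 0.00213). Bglap and Bglap2 were at or below 3.17 and 4.43 CPM in every 7 d mouse, below all 3 of the 0 h mice. They rose by 3.66 and 4.13 from 7 d to 14 d (adjusted p = 0.0285 and 0.000565), while against 0 h neither was called (0.884 and 0.79). Without 14 d mouse 1 the adjusted p of Bglap against 7 d was 0.243. Of the Bglap2 31-base words 95.2% are shared with related copies. The 6 collagens Col11a2, Col11a1, Col1a1, Col1a2, Col12a1 and Col5a1 and the 4 collagen enzymes Lox, Plod2, Fkbp10 and Serpinh1 were also higher than at 7 d, with adjusted p up to 0.0434, and without the left feet Lox, Plod2, Serpinh1, Col1a2, Col12a1 and Col5a1 were not called, nor was Serpinf1 (0.302).

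Osteoclast genes were lower than at 7 d where they were called. Ctsk ran from 567 to 1317 CPM at 7 d with a median of 977, above all 14 d mice, and was lower at 14 d by a log2 change of -1.57 (adjusted p = 0.014, or 0.172 without 14 d mouse 1). Itgb3, the integrin chain by which osteoclasts hold to bone, ran from 128 to 330.0 CPM at 7 d and was at 25.1, 51.1 and 57.5 CPM at 14 d (log2 change -2.29, adjusted p = 0.000565). Its 0 h values were 21.0, 37.3 and 27.4 CPM, so the 0 h and 14 d groups overlapped, with 14 d mice 2 and 3 above all 0 h mice. Snx10, a sorting protein that osteoclasts need, was lower by -1.66 (adjusted p = 0.00251) and Slc37a2, a further osteoclast gene, was lower as well. Lif, a cytokine of the interleukin 6 family, was lower by -2.84 (adjusted p = 0.00291) and Serpinb3c, a protease inhibitor of epithelia, by -2.0 (adjusted p = 0.0285, or 0.233 without 14 d mouse 3). The neutrophil genes did not separate 14 d from 7 d, with S100a9 at 36.95 to 133 CPM at 7 d (adjusted p = 0.828). The other genes that rose most from 7 d were C1qtnf3 (3.12, adjusted p = 0.0107, or 0.117 without 14 d mouse 1), a secreted protein of cartilage and growing tissue, and Mamdc2 (2.62, adjusted p = 0.0344, or 0.183 without that mouse).

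**Figure D5:**
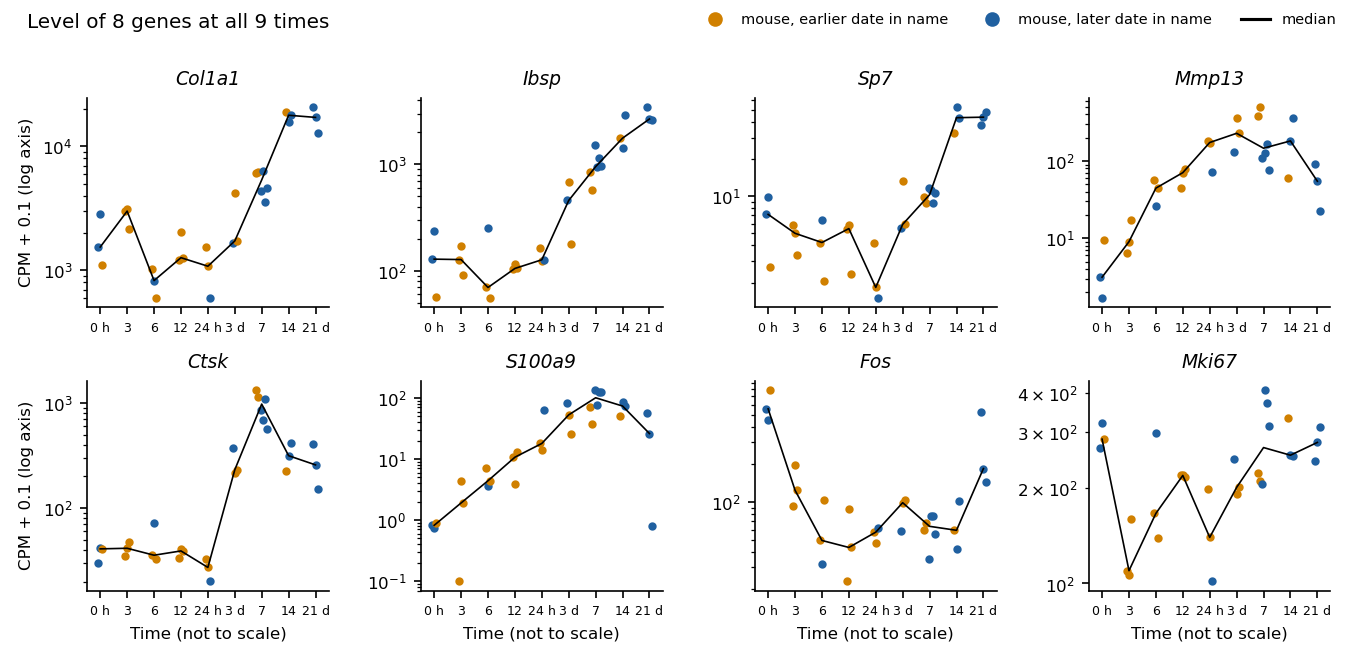
Levels of 8 genes in CPM (plus 0.1, log axis) in each mouse at the 9 time points, with a line through the medians and colour for the earlier or later date in the sample name. Col1a1 and Sp7 are high at 14 and 21 d, the Ctsk median peaks at 7 d, and Fos is high at 0 h and higher at 21 d than at 14 d.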

How the data were processed

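Each library holds the polyA RNA of the amputated P3 of 1 mouse, sequenced as single reads of 65 bases. The reads were demultiplexed with CASAVA 1.8.2 per the labels' processing notes. The authors mapped them to Ensembl v75 mouse genes (mm10) with Bowtie, allowing up to 200 alignments a read, and deposited expected counts and TPM per gene and mouse from RSEM 1.2.3, which shares reads between matching genes in proportion. A further file of the authors' mean TPM per time point was not used. Strand was not given in the sources used here, so overlapping genes cannot be told apart.

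Expected counts were rounded to whole numbers. Genes with too few counts were dropped (filterByExpr), which left 13793 of 20321. Libraries were scaled by TMM, and all 30 mice were fitted with 1 coefficient per time point in edgeR 4.0.16 (R 4.3.3), with the quasi-likelihood test and Benjamini-Hochberg adjustment over all genes tested. The spread is thus shared by all times, and each SE is the log2 fold change divided by the square root of the test's F. CPM are TMM-scaled. limma 3.58.1 and DESeq2 1.42.0 gave alternative tests. Only some kinds of fit were tried on simulated data, not every fit reported here, and the outcome is not given. Depths of 5698534 to 12773273 counts leave genes of a few CPM imprecise.

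Groups follow the labelled time points. Nothing besides the labels says that mice of a group were separate in handling, and replicate numbers follow accession order. Member genes and lists were chosen with earlier results of these data known, so no list was tested as a whole. Named genes were, of those called with at least 5 CPM and separate groups, the 15 with the largest increase and the 10 with the largest decrease, up to 4 of each list by p, the fixed cell type markers, the 10 called genes of highest TPM, and the 4 that moved most against 7 d. Phospho1, Pth1r, Spp1, Dlx5, Serpinh1, Fn1, Dcstamp, Cxcl5, Ccl7, Bmp4, Msx1, Mki67, Clec4e and the further list members named in the text were chosen after their values were seen. Gene positions came from GENCODE vM21 (GRCm38), to which 20090 genes were matched by transcript, and promoters from RefSeq. Overlaps and shared words also use GENCODE vM21, while the authors counted on Ensembl v75, so some of them may not bear on the counts. Mia3, Trac, Mx1, Flg, Flg2, Krt85 and Krtap5-1, members of the lists, were not analysed here.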

Additional observations from a re-analysis of the deposited data

How the results depend on the processing

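Against the 222 genes called (204 higher, 18 lower), DESeq2's Wald test called 346 (307 and 39), the date set as a covariate 345 (59 lower), limma 106 (99 and 7) on log2(TPM + 0.1) and 145 (134 and 11) on log2(TPM + 1), a fit of the 6 mice alone 592 (481 and 111) and the same with the date set 1306 (806 and 500). Without left-foot mice 28 were lower, and at an adjusted p under 0.01 the counts were 111 (104 and 7). With a mouse left out they ran from 94 to 181 in all, 84 to 169 higher and 6 to 12 lower. Against 7 d, 60 genes became 191 (100 and 91) with DESeq2, 274 (182 and 92) with the date set, 35 (16 and 19) without left feet, 21 (18 and 3) at 0.01, and 21 to 160, 16 to 94 and 3 to 69 with a mouse left out. Between 21 d and 14 d DESeq2 called 5, and between date sets 11.

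By list, the 8 bone matrix genes became 14 in the 6 mice alone and 15 with the date set, and 7 to 9 with a mouse left out. The osteoblast factors became 5, collagens 22, immediate early 11 and inflammation 11 (10 with DESeq2) in the 6 mice with the date set. Collagen synthesis became 7 on TPM + 0.1, 22 in that last fit and 8 to 11 with a mouse left out, glycoproteins 7, 18, 19, 7 at 0.01 and 6 to 11, proteases 6, 6 at 0.01 and 5 to 8, and osteoclast genes 3 to 4. Cartilage became 2 on TPM + 0.1, 1 at 0.01 and 1 to 3. The BMP and TGF-beta, growth factor, macrophage, antigen presentation and hypoxia genes called higher became 0 in both limma fits, and 5, 3, 5, 2 and 4 in the 6 mice with the date set. The growth factor gene called lower became 0 on TPM + 0.1 and 2 on TPM + 1. Wnt genes became 2 to 4, and erythroid genes 1 to 4. The cause of these shifts was not tested.

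Some fitted differences that were not called changed sign. With a mouse left out, Acta1 ran from -3.40 to 3.45 (highest without 0 h mouse 2), Col2a1 from -0.0358 to 0.933, Dlx5 from -0.125 to 0.027 and Mki67 from -0.194 to 0.0384, and Acta1 was at 0.81 on log2(TPM + 0.1). The median of all genes moved by up to 0.14 on limma's TPM scale, at 21 d against 14 d. No paired analysis was possible because replicate numbers follow accession order and, by the study's number of mice, each mouse gave 1 digit.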

Other observations

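Of the 204 higher genes 126 were in none of the lists. Those named here are Clec4d and Clec4e, C-type lectins of myeloid cells, and Slpi, with Clec4e chosen after its values were seen. Clec4d was at 0.80, 0.75 and 0.32 CPM at 0 h and at 16.6, 10.7 and 33.9 CPM at 14 d (log2 change 4.93 ± 0.91, adjusted p = 0.00184). Clec4e had no count in any 0 h mouse and was at 6.00, 2.06 and 5.80 CPM at 14 d, at least 42.1-fold higher against a floor of 3 counts over the group, with an adjusted p of 0.0244 that became 0.15 without 0 h mouse 1. Slpi, a secreted protease inhibitor that neutrophils and epithelia make, was at 0.24, 1.066 and 0.96 CPM and then at 20.3, 22.6 and 24.0 CPM (log2 change 4.94 ± 0.78, adjusted p = 0.000387).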
